A study of Mus musculus with 9 samples.

Results

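The genes described here carry out antigen presentation by major histocompatibility complex (MHC) class I. They were chosen by name for their part in class I heavy chains, peptide transport, peptide loading and their regulation, with earlier results of these data known. They are 10 of the 23309 genes in the deposited files: H2-K1, H2-D1, H2-T23, B2m, Tap1, Tap2, Tapbp, Nlrc5, Erap1 and Canx. All 10 were found by symbol. RNA was sequenced from D2.0R cells, mouse mammary tumour cells that lie dormant on a basement membrane extract (BME) and start to divide when type I collagen (COL1) is mixed in. Cells were seeded in low-serum medium containing Cultrex BME on a coat of BME and harvested at day 1 or day 5 (BME day 1 and BME day 5), or in medium with Cultrex BME and COL1 on a coat of both and harvested at day 5 (BME plus COL1), with 3 biological replicates (a, b and c) in each of the 3 groups. All groups were cultures of the same line, with no drug named and no host cells, so they model the tumour cell and its matrix alone. No COL1 culture was taken at day 1, so COL1 at day 5 was compared with BME at day 1 across both matrix and time.

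In this pathway the proteasome cuts cytosolic proteins into peptides, the TAP transporter (Tap1 and Tap2) carries them into the endoplasmic reticulum, aminopeptidases such as Erap1 trim them, and the chaperones calnexin (Canx), calreticulin and tapasin (Tapbp) fold the heavy chain and load it. A heavy chain bound to beta-2-microglobulin (B2m) and a peptide then moves to the cell surface, where CD8 T cells and natural killer cells read it. Interferon raises the transcription of most of these genes, and Nlrc5 is the transactivator that binds with RFX, CREB/ATF and NF-Y proteins at class I promoters. Tumour cells are well known to escape T cells by lowering one or several of these parts.

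To show the regulatory sequence that class I promoters share, the 250 bases before the annotated start were read from the mm9 genome for each gene, on the gene's own strand. Capitals mark 3 motifs, searched on both strands: the interferon-stimulated response element (ISRE), here GAAA, any 2 bases and GAAA again, the CCAAT box (CCAAT) bound by NF-Y, and TGACG, the core of the cAMP response element bound by CREB/ATF proteins. None of the marked matches overlapped another. H2-K1 (chr17:34137279-34137528, minus strand), H2-D1 (chr17:35399789-35400038, plus strand), B2m (chr2:121973173-121973422, plus strand) and Tap1 (chr17:34324251-34324500, plus strand) are printed as genes that were high together on BME at day 5, Nlrc5 (chr8:96996413-96996662, plus strand) as the gene with the widest range, and Canx (chr11:50139176-50139425, minus strand) as the gene that went the other way.
H2-K1: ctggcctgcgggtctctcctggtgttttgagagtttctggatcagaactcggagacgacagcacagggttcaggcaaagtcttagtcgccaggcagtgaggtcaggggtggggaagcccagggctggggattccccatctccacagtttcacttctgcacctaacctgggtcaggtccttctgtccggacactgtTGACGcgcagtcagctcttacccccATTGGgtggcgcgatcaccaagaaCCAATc
H2-D1: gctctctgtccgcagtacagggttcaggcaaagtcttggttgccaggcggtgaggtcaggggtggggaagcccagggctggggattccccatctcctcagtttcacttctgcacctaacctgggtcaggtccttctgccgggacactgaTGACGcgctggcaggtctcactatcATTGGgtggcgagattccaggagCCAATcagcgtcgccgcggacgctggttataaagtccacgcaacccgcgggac
B2m: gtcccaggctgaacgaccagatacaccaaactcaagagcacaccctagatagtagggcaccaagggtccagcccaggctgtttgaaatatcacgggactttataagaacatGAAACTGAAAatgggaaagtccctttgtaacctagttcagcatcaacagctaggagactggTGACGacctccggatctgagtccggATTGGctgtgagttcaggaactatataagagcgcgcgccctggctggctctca
Tap1: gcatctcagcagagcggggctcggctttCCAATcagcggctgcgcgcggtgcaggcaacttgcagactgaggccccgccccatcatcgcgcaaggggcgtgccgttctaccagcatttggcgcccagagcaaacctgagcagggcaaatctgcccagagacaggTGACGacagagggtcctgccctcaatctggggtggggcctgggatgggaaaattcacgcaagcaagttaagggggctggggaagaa
Nlrc5: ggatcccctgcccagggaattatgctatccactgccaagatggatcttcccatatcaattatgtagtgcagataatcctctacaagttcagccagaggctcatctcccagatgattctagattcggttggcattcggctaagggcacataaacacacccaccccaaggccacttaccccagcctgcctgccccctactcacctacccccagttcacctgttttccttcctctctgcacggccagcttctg
Canx: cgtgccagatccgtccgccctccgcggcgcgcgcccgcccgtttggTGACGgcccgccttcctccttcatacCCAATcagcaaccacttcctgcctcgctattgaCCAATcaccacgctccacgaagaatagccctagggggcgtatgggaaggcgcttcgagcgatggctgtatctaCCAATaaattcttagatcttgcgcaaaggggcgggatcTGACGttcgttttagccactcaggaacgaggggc
The letters are those of the C57BL/6 reference and not of the D2.0R genome. Between them, the H2-K1 and H2-D1 windows shared an identical run of 47 bases, which began at position -155 from the start in H2-K1 and at -201 in H2-D1. A CCAAT box and a TGACG core stood together in 5 of the 10 windows (H2-K1, H2-D1, B2m, Tap1 and Canx), against 7.324% of the 25956 promoter windows in the annotation. The exact ISRE string stood in 4 windows (H2-T23, B2m, Tap2 and Erap1), against 3.117% of all windows. The B2m match, GAAACTGAAA, began at position -139 from the start, and the Tap2 match followed a stretch made mostly of T. Looser forms of the element were not searched, so a window without a match, such as H2-K1 or H2-D1, may still hold one. A CCAAT box was found in 35.106% and TGACG in 20.242% of all windows, each counted with or without the other. No match was found in the Nlrc5 window. A match is a string of letters and was not tested for binding, and the windows depend on where the annotation places each start.

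Values are FPKM (fragment counts corrected for transcript length and library size) from Cufflinks, as the authors deposited them for the RefSeq transcripts of mm9, summed over the transcripts of a gene. Levels of different genes can therefore be set side by side per length. The 10497 genes that averaged 1 FPKM or more across all 9 libraries were compared on log2(FPKM + 0.1) with limma, and calls were made at an adjusted p under 0.05. Of the 10 class I genes, 8 passed this filter. Tap1 and Nlrc5, with means of 0.936 and 0.852 FPKM, did not, and their test values come from a fit without the filter over all 23309 genes. Aligned sequence came to 7.21 to 9.37 gigabases per library. One library stood apart: the log2 value of the median tested gene was -0.27 relative to the 9-library mean in BME day 5 replicate b, against -0.03 and -0.04 in replicates a and c. The choice of scaling also moved all genes together: between the matrices at day 5 the median gene differed by -0.18 with FPKM and by 0.16 with TPM, and 40.1% of the called genes were higher on BME with FPKM but 59.4% with TPM.

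By group means, 8 of the 10 class I genes followed one order, with the highest levels in dormant cells on BME at day 5, lower levels at day 1 and the lowest levels in the proliferating cultures that contained COL1. The share of all tested genes in this order was not counted, so how unusual it is cannot be read from this count. Among day 5 cultures, 6 of the 8 tested genes were higher on BME than with COL1 (Tap2, B2m, Tapbp, H2-T23, H2-D1 and H2-K1), against 30.3% of all tested genes called higher. Canx was lower on BME, in a comparison in which 45.3% of tested genes were called lower, and Erap1 did not pass the test. The median log2 difference of the 8 genes was 1.24, against -0.18 over all tested genes. Values of all BME day 5 libraries lay above all BME plus COL1 libraries for 8 of the 10 genes, Tap1 and Nlrc5 included, against 32.1% of tested genes, and the reverse held for Canx, against 48.1%.

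**Figure D1:**
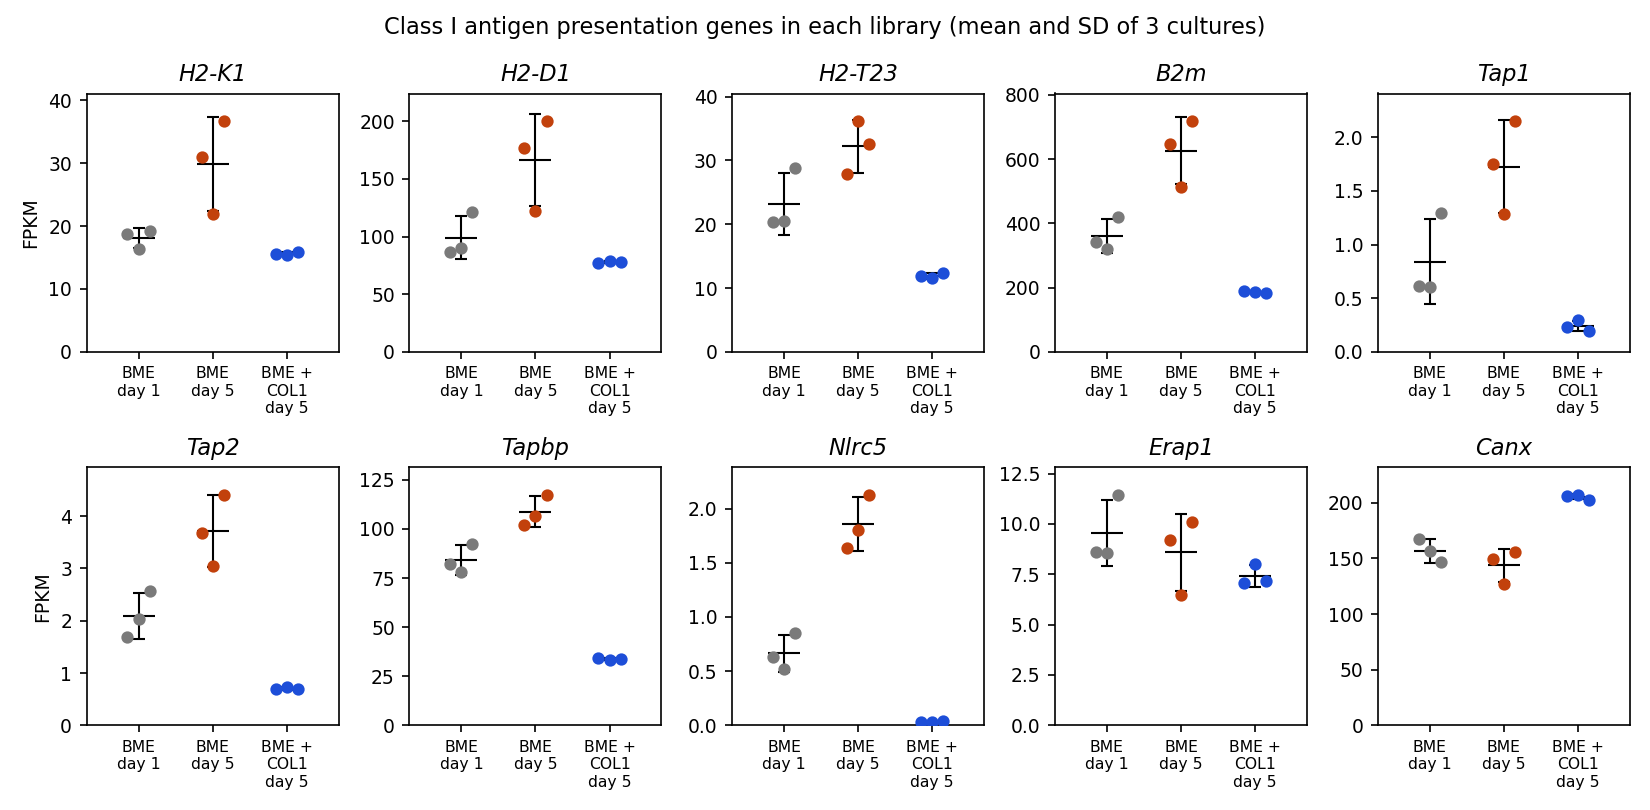
FPKM of the 10 class I genes (linear vertical axes from 0, one panel per gene) in the 3 cultures of each group, with each point a library and the bars the mean and SD. The BME day 5 points lie above the BME plus COL1 points in 8 panels, overlap them for Erap1 and lie below them for Canx.

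H2-K1 and H2-D1 encode the classical heavy chains, which carry peptides to CD8 T cells. H2-D1 (chromosome 17, 35400039 to 35404442) was at 86.7, 89.7 and 121 FPKM on BME at day 1, at 177, 122 and 200.03 FPKM on BME at day 5 and at 77.2, 78.7 and 78.2 FPKM on BME plus COL1, in the order of replicates a, b and c. The lowest BME day 5 library (replicate b, 122 FPKM) lay just above the highest day 1 library (replicate c, 121 FPKM). H2-K1 (chromosome 17, 34132957 to 34137278) was at 18.7, 16.4 and 19.3 FPKM at day 1, 31.0, 21.98 and 36.7 FPKM on BME at day 5 and 15.6, 15.4 and 15.9 FPKM on BME plus COL1. Neither gene overlapped between any pair of groups. Between the matrices at day 5, H2-D1 was 2.13-fold higher on BME by group means (log2 difference 1.06, SE 0.18, limma adjusted p = 0.000538) and H2-K1 1.91-fold (0.90, SE 0.16, adjusted p = 0.000658).

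H2-T23 encodes Qa-1, a nonclassical heavy chain that is read by the inhibitory receptor NKG2A on natural killer and CD8 T cells. Its FPKM were 20.4, 20.4 and 28.8 at day 1, 27.9, 36.1 and 32.7 on BME at day 5 and 11.8, 11.5 and 12.4 with COL1. Here replicate b was the highest of the BME day 5 libraries, while it was the lowest for H2-K1, H2-D1 and B2m. The gene was 2.71-fold higher at day 5 on BME than with COL1 (log2 difference 1.42, SE 0.14, adjusted p = 1.71e-05).

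Values of single heavy chains carry a limit of their own, because these genes are near-identical copies and the sharing of reads between them is not given in the sources used here. The read depth that Cufflinks printed per FPKM was 0.419 to 0.458 of that of the median transcript for H2-K1, 0.713 to 0.878 for H2-T23 and 0.847 to 0.883 for H2-D1, against 0.990 to 0.994 for B2m, and these ranges cover all 9 libraries. H2-L and LOC547349 overlap H2-D1 on the same strand, and A930015D03Rik overlaps H2-T23 on the opposite strand. D2 lines come from BALB/c mice, whose class I haplotype differs from that of the reference. A sum over 18 H2 heavy chain genes (H2-K1, H2-D1, H2-L and the H2-Q and H2-T genes) removes the split among these copies. A split with genes outside the sum remains, such as LOC547349 or H2-K2, whose relative depth per FPKM was 0.324 to 0.4. The summed level was 169 ± 27.3 FPKM at day 1, 281 ± 55.7 on BME at day 5 and 128 ± 0.885 with COL1 (SD, n = 3). The sum ran from 221 to 332 FPKM on BME at day 5 and from 127 to 129 FPKM on BME plus COL1, so that the groups did not overlap. It was higher on BME by 1.11 on the log2 scale (SE 0.16, limma adjusted p = 0.000139). H2-D1 made up 55.2% to 61.9% of the sum in every library.

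B2m (chromosome 2, 121973423 to 121978818) encodes the light chain that every class I molecule needs. It was at 342, 320.1 and 421 FPKM at day 1, at 648, 513 and 718 FPKM on BME at day 5 and at 191, 188 and 184 FPKM on BME plus COL1. The 3 groups were fully separate, and B2m had the highest level of the 10 genes on BME at both days, whereas Canx did on BME plus COL1. At day 5 it was 3.34-fold higher on BME than with COL1 (log2 difference 1.72, SE 0.14, limma adjusted p = 4.97e-06). Patl2 overlaps B2m on the opposite strand. Per FPKM of the heavy chain sum, B2m stood at 2.10 to 2.21 FPKM at day 1, 2.17 to 2.32 on BME at day 5 and 1.43 to 1.49 with COL1. The ratio was thus in one range on BME at both days and lower in every COL1 library. This ratio was not tested.

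Tap1 and Tap2 form the transporter that moves peptides into the endoplasmic reticulum. Tap2 (chromosome 17, 34341424 to 34353266) was at 1.68, 2.03 and 2.56 FPKM at day 1, 3.69, 3.04 and 4.41 FPKM on BME at day 5 and 0.691, 0.728 and 0.694 FPKM on BME plus COL1. It was 5.27-fold higher on BME at day 5 (log2 difference 2.23, SE 0.17, limma adjusted p = 3.91e-06), and with 1 FPKM added in place of 0.1 the log2 difference was 1.46. Tap1 (chromosome 17, 34324501 to 34334170) was at 0.617, 0.604 and 1.30 FPKM at day 1, 1.75, 1.28 and 2.15 FPKM on BME at day 5 and 0.230, 0.296 and 0.198 FPKM on BME plus COL1. All BME day 5 libraries were above the COL1 libraries, by 7.15-fold in the means, while replicate c of day 1 (1.30 FPKM) reached into the BME day 5 range. Without the filter, Tap1 differed by 2.40 on the log2 scale (SE 0.32, adjusted p = 0.00111), in a fit that called 18.6% of 23309 genes higher. Together with Nlrc5, the transporter genes were the 3 least abundant of the 10 in every group by their means, with Tap1 at 1.28 to 2.15 FPKM beside 513 to 718 FPKM for B2m on BME at day 5.

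Tapbp encodes tapasin, which bridges the transporter and the empty heavy chain. Its levels were far above those of the transporter, at 82.2, 78.1 and 92.5 FPKM at day 1, 102, 107 and 117 FPKM on BME at day 5 and 34.1, 33.1 and 33.8 FPKM on BME plus COL1. The replicates lay close together within each group, and the groups did not overlap. Tapbp was 3.23-fold higher at day 5 on BME than with COL1 (log2 difference 1.69, SE 0.09, limma adjusted p = 4.24e-07). Its 2 transcripts were present in near-equal parts, with NM_001025313 at 45.2% to 50.3% of the gene's FPKM on BME at day 5 and 44.1% to 45.7% on BME plus COL1.

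Erap1, the aminopeptidase that trims peptides in the endoplasmic reticulum, did not share this pattern. It was at 8.59, 8.58 and 11.4 FPKM at day 1, 9.19, 6.47 and 10.12 FPKM on BME at day 5 and 7.05, 8.01 and 7.18 FPKM on BME plus COL1. The day 5 groups overlapped, with replicate b on BME the lowest of the 9 libraries. The log2 difference at day 5 was 0.19 (SE 0.17, adjusted p = 0.334). It was 0.38 without replicate b of BME day 5 (adjusted p = 0.0233) and 0.53 with TPM (adjusted p = 0.00333), both past the threshold, and adjusted p ran from 0.00333 to 0.779 over the alternatives.

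Canx, the lectin chaperone that holds newly made heavy chains and many other glycoproteins, went the other way. It was at 168, 157 and 146 FPKM at day 1, 149, 127 and 156 FPKM on BME at day 5 and 206, 207 and 203 FPKM on BME plus COL1. Every COL1 library was above every BME library, and the 2 BME groups overlapped. At day 5 Canx was 1.43-fold higher on BME plus COL1, a log2 difference for BME of -0.52 (SE 0.10, limma adjusted p = 0.00082). With quantile normalization the difference was -0.11 and no longer called (adjusted p = 0.16, and from 0.000152 to 0.16 over all alternatives). NM_007597 made up 93.8% to 95.5% of its FPKM in all libraries.

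Nlrc5 (chromosome 8, 96996663 to 97051172) is the transactivator of class I genes and had the widest range of the 10. Its FPKM were 0.628, 0.519 and 0.851 at day 1, 1.64, 1.802 and 2.13 on BME at day 5 and 0.0282, 0.0338 and 0.0418 with COL1. The groups were far apart, although Nlrc5 was below 3 FPKM in every library. Counting error given by Cufflinks put the highest COL1 library, replicate c, between 0.0200 and 0.0636 FPKM and the lowest BME day 5 library, replicate a, between 1.498 and 1.774 FPKM. By group means it was 53.6-fold higher on BME at day 5 (1.86 ± 0.250 FPKM) than on BME plus COL1 (0.0346 ± 0.00684 FPKM, SD, n = 3). Without the filter the log2 difference was 3.85 (SE 0.18, limma adjusted p = 1.78e-05), which the added 0.1 FPKM makes smaller than the difference of the means.

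Between day 1 and day 5 on BME, 6 of the 8 tested genes were higher at day 5 (Tap2, B2m, H2-D1, H2-K1, H2-T23 and Tapbp), against 9.09% of all tested genes called higher, and none was lower, against 22.2%. Their median log2 difference was 0.59, against -0.15 over all tested genes. The largest differences were 0.80 for Tap2 (SE 0.17, limma adjusted p = 0.0112) and 0.79 for B2m (SE 0.14, adjusted p = 0.00482). H2-D1 differed by 0.73, H2-K1 by 0.69, H2-T23 by 0.48 and Tapbp by 0.37. Erap1 (-0.16) and Canx (-0.13) did not pass the test. Nlrc5, 2.79-fold higher in the means, was called without the filter (log2 difference 1.37, SE 0.18, adjusted p = 0.00834), in a fit that called 4.18% of genes higher. Tap1 (1.01, adjusted p = 0.101) was not. In the same fit H2-K1 (adjusted p = 0.0596), H2-D1 (0.0735) and H2-T23 (0.104) were no longer called, so that 4 of the 10 genes were. Values of day 5 lay above those of day 1 in all libraries for 6 of the 10 genes, against 12.8% of tested genes, and H2-T23 and Tap1 overlapped.

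These calls at day 5 over day 1 were close to the threshold. Of the 6 genes, 1 (B2m) was called at an adjusted p under 0.01, and 1 in a fit to the 6 BME libraries alone. That fit called 452 of all 10497 tested genes higher. Tapbp lost its call when the most abundant transcript stood for the gene (adjusted p = 0.0511). Leaving out replicate b of day 1 left 2 genes called and leaving out replicate a left 3, whereas 4 to 6 were called without any other library. Calls fell over all 10497 tested genes as well, from 954 higher in the main fit to 533 without replicate a and 533 without replicate b. Leaving out any other library gave 695 to 1267. Replicate c of day 1 was the highest of its group for 9 of the 10 genes, and in it the median of the 10 genes lay 0.45 above the mean over the 9 libraries, against -0.02 and -0.05 in replicates a and b.

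**Figure D2:**
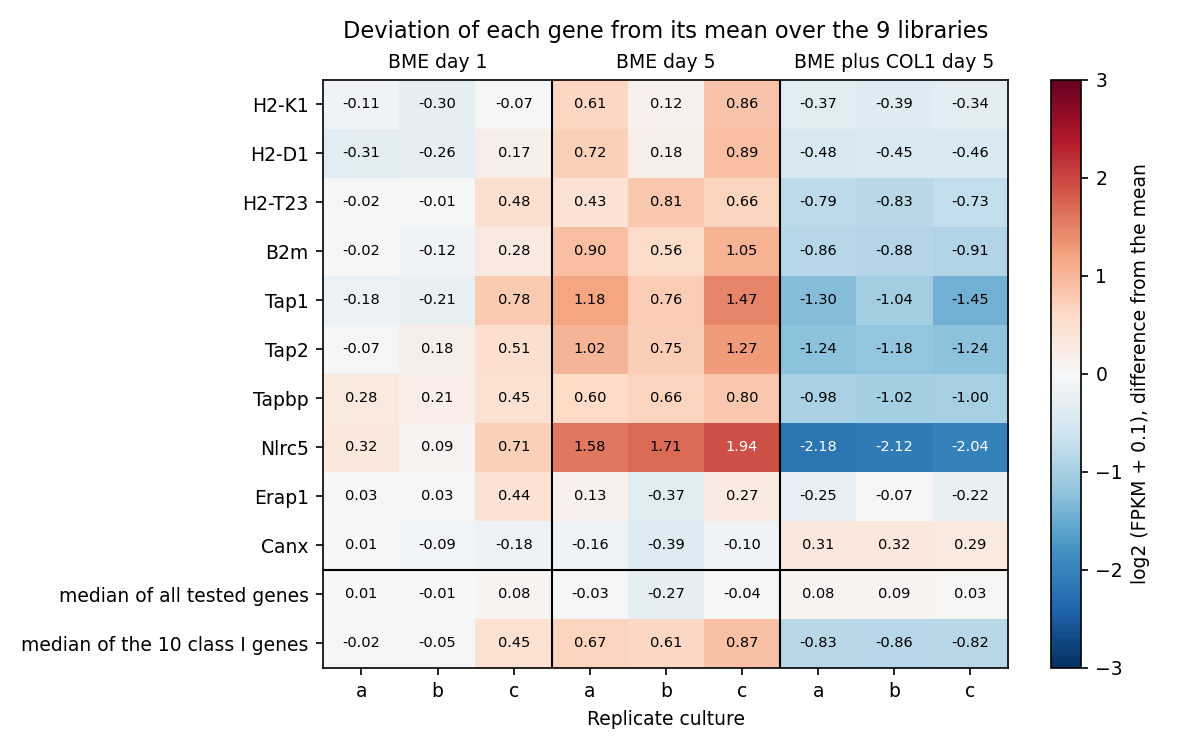
Deviation of log2(FPKM + 0.1) from its mean over the 9 libraries (colour and number) for each class I gene, with the medians of all tested genes and of the 10 genes in the bottom rows. The median of the 10 genes runs from 0.61 to 0.87 on BME at day 5 and from -0.86 to -0.82 with COL1, and replicate c of day 1 (0.45) lies apart from a and b.

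With COL1 at day 5, 4 of the 8 tested genes were lower than on BME at day 1 (Tap2, Tapbp, H2-T23 and B2m), against 31.8% of all tested genes called lower, and Canx was higher, against 34.2%. The log2 differences were -1.43 for Tap2 (SE 0.17, limma adjusted p = 9.65e-05), -1.32 for Tapbp (SE 0.09, adjusted p = 2.77e-06), -0.94 for H2-T23, -0.93 for B2m and 0.39 for Canx (SE 0.10, adjusted p = 0.00564). The classical heavy chains differed less, with -0.33 for H2-D1 (SE 0.18, adjusted p = 0.141) and -0.21 for H2-K1 (SE 0.16, adjusted p = 0.278), and neither passed the test, nor did Erap1 (-0.35). All 3 were called lower with TPM, in a fit to the 6 libraries of the comparison and without replicate b of BME day 5, which gave 7 genes lower in place of 4. Calls rose over all 10497 tested genes as well. From 3343 lower in the main fit they went to 4870 with TPM, 3768 with 6 libraries and 3820 without that replicate. Without the filter Nlrc5 (-2.49, adjusted p = 0.000135) and Tap1 (-1.39, adjusted p = 0.0161) were also lower, where 16.8% of genes were called lower. Every COL1 library lay below every day 1 library for 9 of the 10 genes, against 38.3% of tested genes, and above them for Canx, against 41.6%.

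The 3 comparisons share libraries with one another, so they are not independent. RNA was taken from whole cultures, in which fewer expressing cells and less RNA per cell cannot be told apart.

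**Figure D3:**
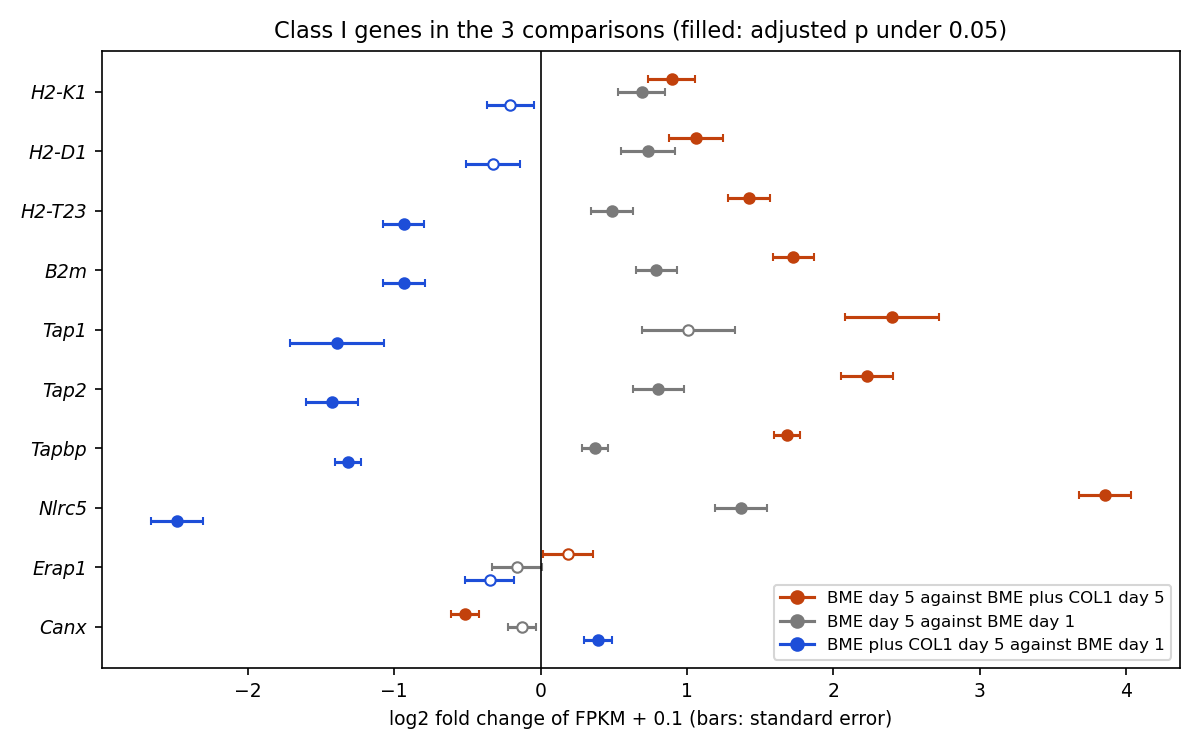
Log2 fold change (horizontal axis, FPKM with 0.1 added, bars giving the standard error) of each class I gene in the 3 comparisons, filled where the adjusted p is under 0.05. Tap1 and Nlrc5 come from the fit without a filter. Nlrc5 spans the widest range, from -2.49 to 3.85, and Canx lies on the opposite side from the other called genes in both comparisons that include COL1.

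The wider set of class I genes was described by role. Of 23 other class I heavy chain genes, 12 were tested, and 10 were higher at day 5 on BME than with COL1 and none lower, with a median log2 difference of 0.97, against 30.3% of all tested genes called higher. The largest differences were in H2-T9 (4.16, 5.04 and 4.68 FPKM on BME against 1.61, 1.49 and 0.773 FPKM on BME plus COL1, log2 difference 1.82) and H2-Q8 (1.46). Against day 1, 7 of the 12 were higher on BME at day 5, led by H2-Q8 (1.81) and H2-Q5 (0.98), against 9.09% of all tested genes, and 4 were lower on BME plus COL1, against 31.8%, led by H2-M3 (-1.13) and H2-T9 (-0.95). H2-Q5 passed the filter only through BME day 5 (mean 1.55 FPKM, against 0.731 at day 1 and 0.748 with COL1), which favoured its call as higher there. H2-Q8 was at 4.06, 1.28 and 6.41 FPKM on BME at day 5. It reached 1.33 FPKM at day 1 and 1.37 FPKM on BME plus COL1, so BME day 5 overlapped both groups. H2-Q6, annotated over nearly the same bases, was at 1.82, 3.20 and 0.00369 FPKM in the same day 5 libraries, high where H2-Q8 was low. H2-T22, also tested, is annotated over nearly the same bases as H2-T9. In replicate c of BME plus COL1, H2-T9 was at 0.773 and H2-T22 at 2.20 FPKM. In replicate c of day 1 they were at 4.30 and 1.47 FPKM, so single values of either gene carry the same limit. H2-M3, which presents formylated peptides, was at 16.0, 6.77 and 16.8 FPKM on BME at day 5, with replicate b far below the others.

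Of 16 class I-like genes, 15 were in the files and 6 were tested, and 4 were higher at day 5 on BME than with COL1 (Fcgrt, Cd1d1, Mr1 and Hfe), against 30.3% of all tested genes. Their products pair with B2m: Fcgrt is the neonatal Fc receptor, Cd1d1 presents lipids, Mr1 presents vitamin B metabolites and Hfe acts in iron uptake. Fcgrt was at 0.458, 0.242 and 0.962 FPKM at day 1, 3.33, 4.80 and 3.85 FPKM on BME at day 5 and 0.0137, 0.0246 and 0.0605 FPKM on BME plus COL1, and its log2 difference between the matrices was 4.95 (SE 0.40, limma adjusted p = 4.73e-06). Cd1d1 differed by 3.73, with 5.21 to 8.74 FPKM on BME and 0.317 to 0.449 FPKM on BME plus COL1. Against day 1, Fcgrt was higher on BME at day 5 (2.79) and Procr lower (-0.77). Fcgrt passed the filter only through BME day 5 (mean 3.997 FPKM, against 0.554 at day 1 and 0.0329 with COL1). This favoured its calls as higher there. On BME plus COL1, 5 genes were lower than at day 1, against 31.8% of all tested genes, led by Cd1d1 (-3.31) and Fcgrt (-2.16).

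The proteasome did not move as one with the class I genes. Of the immunoproteasome subunits and the PA28 activator, Psmb8 was higher at day 5 on BME than with COL1 (log2 difference 1.18, SE 0.39, limma adjusted p = 0.0183) and Psmb10 lower (-1.26, SE 0.15, adjusted p = 4.77e-05), while Psme1 (0.13) and Psme2 (-0.19) did not pass the test. With TPM, median-ratio or quantile scaling 2 of these genes were called higher on BME, where 4858, 3730 and 3813 of all 10497 tested genes were. Psmb8 was at 1.87, 0.907 and 2.35 FPKM on BME and 0.591 to 0.698 FPKM on BME plus COL1. It passed the filter only through BME day 5 (mean 1.71 FPKM, against 0.940 at day 1 and 0.647 with COL1), which favoured its call as higher there. Psmb9, whose transcript begins 225 bases from that of Tap1 on the opposite strand, was at 0.150 to 0.588 FPKM in the 9 libraries and did not pass the filter. Without the filter it was not called (log2 difference 0.50 between the matrices at day 5, SE 0.27, adjusted p = 0.228). Of the 5 constitutive genes (Psmb5, Psmb6, Psmb7, Psme3 and Psme4), 4 were lower at day 5 on BME than with COL1, against 45.3% of all tested genes, led by Psme3 (-1.15) and Psmb7 (-1.13). With TPM and with quantile normalization 1 of the 5 was called higher, where 4858 and 3813 of all 10497 tested genes were. Psmb7, which encodes a catalytic subunit, was at 73.1 to 93.7 FPKM on BME and 182 to 191 FPKM on BME plus COL1. Against day 1, 4 of the constitutive genes were lower on BME at day 5, against 22.2% of all tested genes, led by Psmb7 (-0.45) and Psme3 (-0.38). Psmb10 was lower too (-0.50). With genes shorter than 300 nt left out, 1 of the 4 was called and Psmb10 was not. That setting called 1216 of all 10417 tested genes lower, against 2327 of 10497 in the main fit. With COL1, Psmb10 (0.75), Psme3 (0.77) and Psmb6 (0.69) were higher than at day 1.

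Of 7 other loading and folding factors, 1 was higher at day 5 on BME than with COL1 and 3 were lower, against 30.3% and 45.3% of all tested genes. Tapbpl, the tapasin-related editor of class I peptides, was at 9.07, 7.68 and 7.88 FPKM at day 1, 6.36, 5.37 and 6.54 FPKM on BME at day 5 and 2.60, 2.47 and 2.55 FPKM on BME plus COL1, and was higher on BME by 1.23 (SE 0.10, limma adjusted p = 3.91e-06). Unlike Tapbp, it was lower on BME at day 5 than at day 1 (-0.43). The 3 lower factors were endoplasmic reticulum chaperones: Hspa5 by -1.18, Calr by -0.82 and Pdia3, also known as ERp57, by -0.76. Calr was at 842 to 1067 FPKM on BME and 1672 to 1716 FPKM on BME plus COL1. With TPM and with quantile normalization 3 and 4 of the 7 factors were called higher, where 4858 and 3813 of all 10497 tested genes were. Of 7 other peptidases, Lnpep, which trims peptides in endosomes, was higher on BME at day 5 (0.68) and 5 were lower, led by Thop1 (-1.61) and Lap3 (-1.39), cytosolic enzymes that degrade peptides, against 45.3% of all tested genes. With TPM and with quantile normalization 3 were lower and 2 higher. Of all 10497 tested genes, 3327 were lower and 4858 higher with TPM, and 4231 lower and 3813 higher with quantile normalization.

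**Figure D4:**
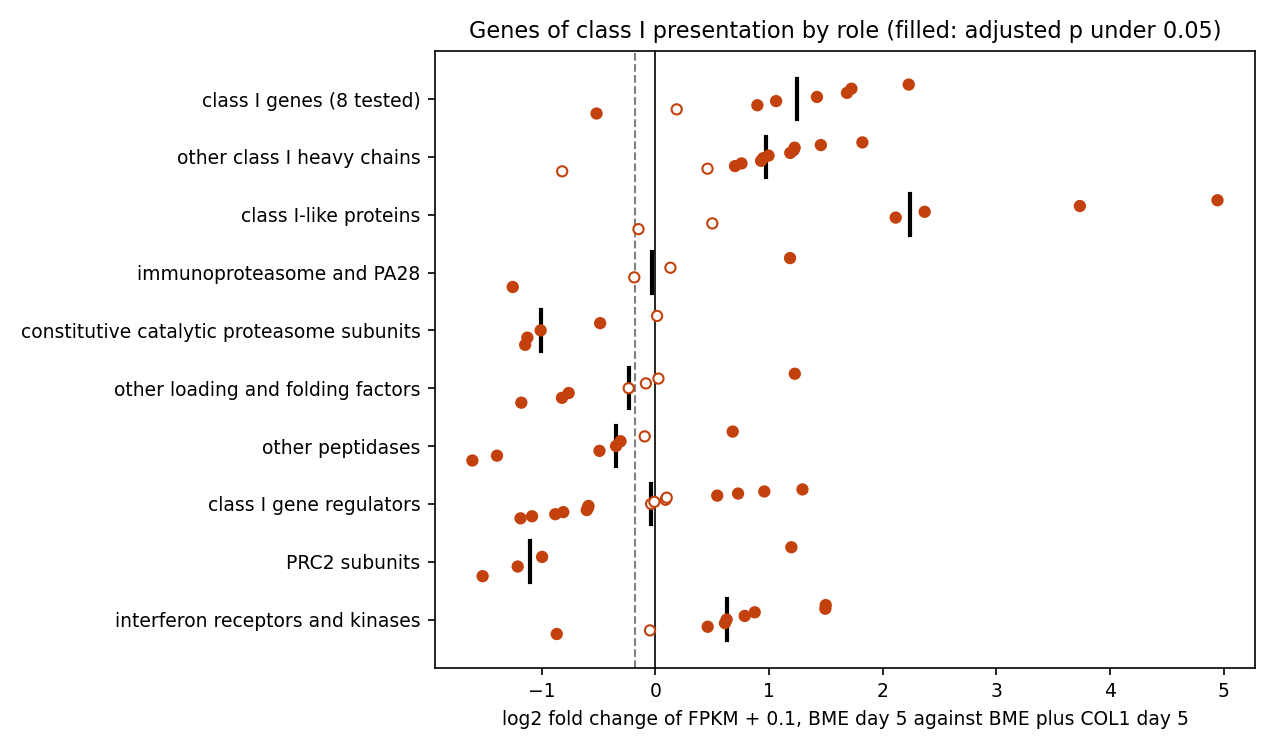
Log2 fold change between the matrices at day 5 (horizontal axis, FPKM with 0.1 added) of the tested genes of each list, filled where the adjusted p is under 0.05, with a black bar at the median of the list and a dashed line at the median of all tested genes (-0.18). Heavy chains and class I-like genes lie mostly to the right, and constitutive proteasome genes mostly to the left.

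Of 15 regulators that act at class I promoters, 4 were higher and 7 lower at day 5 on BME than with COL1, shares close to those of all tested genes (30.3% and 45.3%). The largest rise was in Rfx5 (log2 difference 1.29, SE 0.13, limma adjusted p = 1.38e-05), the DNA-binding subunit of the RFX complex. Rfx5 was at 2.99, 3.05 and 3.26 FPKM at day 1, 2.84, 2.48 and 3.43 FPKM on BME at day 5 and 1.15, 1.05 and 1.17 FPKM on BME plus COL1. It was thus in one range on BME at both days and lower in every COL1 library. The NF-Y subunits Nfyc (-1.19) and Nfyb (-1.09) were the most lowered. Irf1, an interferon-induced activator, was at 12.4, 9.17 and 14.1 FPKM on BME at day 5 and 10.9 to 11.2 FPKM on BME plus COL1 and did not pass the test (0.09, adjusted p = 0.684). With TPM 8 of the 15 were called higher, where 4858 of all 10497 tested genes were. Against day 1, Relb (0.22) was higher on BME at day 5, against 9.09% of all tested genes. The 4 lower regulators, against 22.2% of all tested genes, were led by Nfyb (-0.45) and Nfkb1 (-0.38). With genes shorter than 300 nt left out 0 were called higher and 1 lower, and with other scalings 3 to 4 were higher and 2 lower. Leaving out those genes gave 968 higher and 1216 lower of all 10417 tested. The other scalings gave 1534 to 1873 higher and 2073 to 2236 lower of 10497. With COL1, 7 were higher than at day 1, against 34.2% of all tested genes, led by Nfyc (0.95) and Nfyb (0.64). The 3 lower ones, against 31.8% of all tested genes, were led by Rfx5 (-1.39) and Rfxank (-0.99). With TPM 4 were higher and 6 lower, where 2638 and 4870 of all 10497 tested genes were.

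Polycomb repressive complex 2, which can silence class I genes by methylating histone H3, changed in all 4 listed subunits between the matrices at day 5. Most genes did so in this comparison, with 30.3% of all tested genes called higher on BME and 45.3% lower. Ezh2 (-1.52), Eed (-1.21) and Suz12 (-0.998) were lower on BME and Ezh1, the alternative catalytic subunit, was higher (1.20, SE 0.07, limma adjusted p = 7.44e-07). Ezh2 was at 10.3, 3.93 and 9.20 FPKM on BME at day 5 and 20.9, 20.5 and 21.2 FPKM on BME plus COL1. Against day 1 on BME, Eed alone passed the test (-0.34), with 0 called lower when genes shorter than 300 nt were left out and 1 called higher with median-ratio or quantile scaling. Leaving out short genes gave 1216 of all 10417 tested genes lower, and these scalings gave 1768 and 1873 of 10497 higher. With COL1 Ezh2 (1.04), Eed (0.87) and Suz12 (0.57) were higher than at day 1 and Ezh1 lower (-1.04). Of 9 interferon receptors, kinases and their inhibitors, 7 were higher at day 5 on BME than with COL1, against 30.3% of all tested genes, led by the kinases Tyk2 (1.498) and Jak2 (1.495), and Socs3, an inhibitor of cytokine signalling, was lower (-0.87). These lists were described by their counts, and whether they bear on the class I genes was not tested.

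Markers of other cells were checked beside these results. Of 13 haematopoietic markers, 11 were under 1 FPKM in every library, and Ptprc, which encodes CD45, was at 0.0107 to 0.0763 FPKM. The exceptions were Cd68 and Cd14, and Cd68 was at 2.59 to 3.21 FPKM on BME at day 5 and 0.942 to 1.14 FPKM on BME plus COL1. All 6 endothelial markers were under 1 FPKM in every library. Of 11 class II genes, 10 were under 1 FPKM in every library, among them Ciita, the class II counterpart of Nlrc5, which did not exceed 0.0117 FPKM. H2-DMa, the exception, was higher at day 5 on BME than with COL1 (1.17). Of 8 fibroblast markers, 5 were under 1 FPKM in every library, while Pdgfra was at 17.5 to 22.6 FPKM on BME at day 5 and 2.69 to 2.74 FPKM on BME plus COL1, and the summed list was at 26.4 to 36.1 and 4.52 to 4.70 FPKM. The epithelial keratin Krt8 was at 395 to 582 FPKM on BME at day 5 and 1291 to 1324 FPKM on BME plus COL1. Of 5 tested epithelial markers 4 were lower on BME, against 45.3% of all tested genes. The part of these differences in the class I results was not tested.

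Over the 9 libraries the genes whose log2 values ran most like those of B2m were Dbp (Pearson r = 0.996), B930041F14Rik (0.995), Mir22hg (0.994), Pam (0.994) and Copz2 (0.993). For H2-K1 they were H2-Q4 (0.992), Chn1 (0.989), Ddrgk1 (0.984), Marcks (0.984) and Kdelc2 (0.982). The libraries fall into 3 groups and these values are largely set by the group means, and H2-Q4 is a near-identical copy that can share reads with H2-K1. Dbp, a circadian transcription factor, differed by 3.13 on the log2 scale between the matrices at day 5 (SE 0.22, limma adjusted p = 1.99e-06), against 1.72 for B2m.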

How the data were processed

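RNA-seq of D2.0R cells was deposited as Cufflinks transcript files, 1 per library, with 3 biological replicates in each of 3 groups. The FPKM per transcript, scaled by transcript length and mapped fragments, were computed by the authors (kept as other attribute text in the deposited files). Tools named in the submitters' processing notes are TopHat2 2.0.8, Trimmomatic 0.30, CASAVA 1.8.4 and Partek, with the build mm9 (NCBIM37). The version of Cufflinks, its treatment of reads with several matches and its strand setting are not given in the sources used here. The depth of 7.21 to 9.37 gigabases was taken from the printed read depth. The study's Partek test on alignments could not be repeated.

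FPKM were summed per gene, and genes averaging 1 FPKM or more were fitted as log2(FPKM + 0.1) by limma 3.58.1 (R 4.3.3) with an intensity trend, a mean for each of 3 groups and 9 libraries (6 residual degrees of freedom). Tests were two-sided, with Benjamini-Hochberg adjustment over all genes of a comparison. The fit was tested on simulated data. Alternatives were other pseudocounts, filters and scalings, the most abundant transcript, summed heavy chains, a replicate block and leaving out each library. The 10 genes and the lists were chosen with earlier results of these data known. Named were the 10 genes, up to 2 higher and 2 lower genes of each list, all immunoproteasome, PA28 and PRC2 genes, Calr, Pdia3, Tapbpl, Irf1 and Rfx5, and the 5 genes most correlated with B2m and with H2-K1. One further regulator is not reported here. Psmb9, Ptprc, Ciita, H2-M3 and the constitutive proteasome genes without a place in that rule were named after their values were seen. Promoter windows were cut from mm9 with Python 3.11.15 at the RefSeq starts in the files.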

Additional observations from a re-analysis of the deposited data

How the results depend on the processing

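Between the matrices at day 5 the 6 class I genes called higher kept their direction and their call under every alternative that tested them one by one. The count of genes called higher ran from 6 to 7 when single libraries were left out, and Canx lost its call with quantile normalization, which left 0 genes lower. Of all 10497 tested genes, 2916 to 3609 were higher with single libraries left out, and 4231 were lower with quantile normalization. Between day 5 and day 1 on BME, 1 gene was called higher in a fit to 6 libraries, 1 at an adjusted p under 0.01, and 2 to 6 when single libraries were left out. Of all 10497 tested genes, 954 were higher in the main fit, 452 in the fit to 6 libraries and 533 to 1267 with single libraries left out. In this comparison H2-K1 (adjusted p = 0.0596), H2-D1 (0.0735) and H2-T23 (0.104) lost their calls without the filter and Tapbp (0.0511) with the most abundant transcript. Between BME plus COL1 and day 1, 7 genes in place of 4 were called lower with TPM, 7 in a fit to 6 libraries, and 4 to 7 when single libraries were left out. Of all 10497 tested genes, 3343 were lower in the main fit. With TPM there were 4870, in the fit to 6 libraries 3768, and with single libraries left out 2925 to 3820. Directions turned only in differences that were not called: Erap1 between day 5 and day 1 ran from -0.29 to 0.029 when single libraries were left out (0.029 without replicate b of BME day 5), and Canx in the same comparison was 0.068 with quantile normalization. The cause was not tested. The replicate letters did not pair the libraries (correlations of same-letter deviations from -0.23 to 0.096), and with the replicate block 6 genes were higher and 1 lower on BME than with COL1, 6 were higher at day 5 than at day 1 on BME, and 4 were lower and 1 higher on BME plus COL1 than at day 1. The files give no read counts, so counting error could be taken only from the intervals that Cufflinks printed. The split of reads between near-identical heavy chains also limits H2-K1, H2-D1 and H2-T23.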
